A study of Homo sapiens with 8 samples.

Results

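The response of 1 LS174T derivative line to doxycycline was measured by RNA sequencing, in 2 treated and 2 untreated libraries out of the 8 libraries of the series. The line carries a doxycycline-inducible short hairpin RNA against the long non-coding RNA WiNTRLINC1. Every gene with a deposited value of at least 10 in at least 2 of these 4 libraries was included, which kept 20225 of the 57736 genes listed. LS174T is an established human line from a colon adenocarcinoma. Both groups come from cells that overexpress the Tet repressor, and the hairpin was built into a modified pTER vector. The control group, named CON WiNTRLINC1 WT, grew for 3 days without doxycycline, and the treated group, DOX WiNTRLINC1 KD, grew for 3 days with doxycycline at 1 ug/ml. Because clones were screened for knockdown, the line may descend from 1 clone. The genotype label of these 4 samples names ASCL2 as the hairpin's target, whereas their titles name WiNTRLINC1, and the titles were followed here. WiNTRLINC1 itself was not analysed here. No doxycycline-treated cells without a hairpin were analysed, so the drug and the hairpin cannot be told apart. Whether the replicates grew as separate cultures is not in the labels, and the p-values rest on the spread among these libraries alone, which could be a technical one. In such bulk RNA, fewer cells of one kind and less RNA per cell cannot be told apart either.

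In the intestinal crypt, Wnt ligands keep beta-catenin from being degraded, and beta-catenin with TCF factors then switches on the genes of the stem cells at the crypt base. ASCL2 is a basic helix-loop-helix transcription factor made in those stem cells and is itself a Wnt target. Colon cancer cells with an active Wnt pathway, LS174T among them, keep many of these genes on. The title of the series places a Wnt-regulated non-coding RNA in a circuit with ASCL2, and the comparison asks which genes change when that RNA is targeted.

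The deposited value of a gene is a whole number, a read count that was scaled per library before deposit. Deposited totals of the 4 libraries ran from 21962483 to 22344811, and dividing by the estimated scaling factors put the depth between 19.3 M and 28.0 M reads. The 12 markers of colon epithelium all passed the filter, with a summed value between 118892 and 149946 per library. The 7 fibroblast markers summed to between 96 and 135, the 7 immune markers to between 34 and 63, and the 5 endothelial markers with values to between 35 and 41. On the log2 values of the 4 libraries the first principal component held 57.7% of the variance and separated treated from untreated libraries, and the second held 24.1% and separated replicate 1 from replicate 2 in both groups.

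Of the 20225 genes, limma with Benjamini-Hochberg adjustment called 4146 at an adjusted p under 0.05, which is 20.5%. Among them 2136 genes or 10.6% rose and 2010 genes or 9.94% fell, and the median log2 fold change of all genes tested was 0.01. Most changes were small, since 1394 of the rising and 1096 of the falling genes moved less than 1.5-fold. At least 2-fold changes were seen in 554 genes or 2.74%, and of those at 4-fold or more 24 rose and 59 fell. For 57.3% of all genes tested the treated values did not overlap the untreated ones. Of the 13162 protein-coding genes tested 13.7% rose and 13.1% fell, the shares to set beside the counts of list members below. The number of called genes was 2479 without treated replicate 2, 2750 without untreated replicate 1 and 2813 without treated replicate 1. Below, the values of a gene are given for replicate 1 and then replicate 2 of each group, and fold changes are on the log2(value + 1) scale with their standard error from limma (n = 2 per group).

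**Figure D1:**
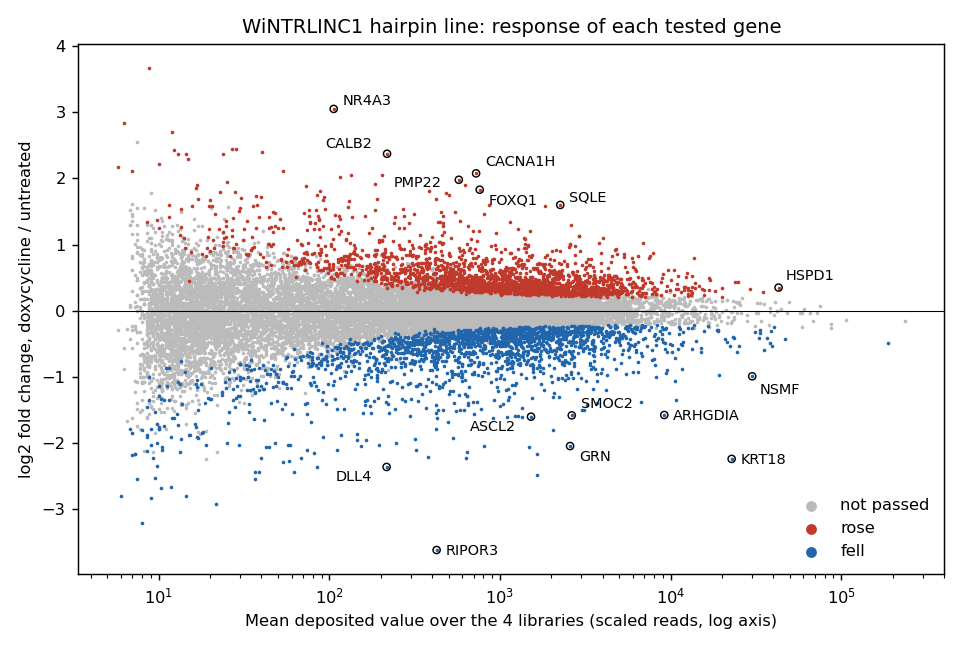
Log2 fold change of doxycycline-treated against untreated cells (vertical axis) against the mean deposited value over the 4 libraries (horizontal log axis, scaled reads), 1 point per gene tested. Red points are the 2136 genes that rose, blue points the 2010 that fell and grey points those that did not pass, and named genes are circled.

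ASCL2 (ENSG00000183734) is no target of this hairpin by the titles, and its level fell. Untreated cells had values of 2540 and 2034 and treated cells 805 and 697. Both treated values lay below both untreated ones, and the log2 fold change was -1.60 ± 0.116 (limma, Benjamini-Hochberg adjusted p = 2.78e-07). Stem cell genes as a list had 11 falls and 0 rises among 19 tested members, and the median log2 fold change was -0.41 beside 0.01 for all genes tested. SMOC2, a secreted matrix protein that marks crypt stem cells, went from 3995 and 3895 to 1249 and 1392. RGMB, a BMP co-receptor, went from 10726 and 11263 to 5352 and 5592, a log2 fold change of -1.01 ± 0.083. In both genes the gap between groups was several times the gap between replicates. SLC12A2, a chloride cotransporter of crypt cells, fell by 0.71 on the log2 scale, the transcription factor SOX4 by 0.60, the adhesion receptor CD44 by 0.51 and the ephrin receptor EPHB2 by 0.48. The largest adjusted p of these 6 genes was 0.00035 for SOX4 (limma, Benjamini-Hochberg). LGR5, the R-spondin receptor by which crypt stem cells are defined, had 2858 and 2942 untreated and 2722 and 2952 treated, so its groups overlapped. Its log2 fold change was -0.03 ± 0.092 with a 95% interval from -0.23 to 0.16. RNF43, which removes Wnt receptors from the membrane, and SOX9, a crypt transcription factor, did not pass either, at 0.14 and -0.13.

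Among Wnt feedback inhibitors and targets 7 of 20 tested members fell, ASCL2 included, 3 rose and 10 did not pass, with a median of -0.32. The 7 falls kept their call whichever of the 4 libraries was left out. TCF7, a TCF family factor that binds beta-catenin, went from 907 and 919 to 390 and 357. NKD1, a feedback inhibitor that binds Dishevelled, went from 1306 and 1312 to 750 and 692, and APCDD1, a membrane inhibitor of Wnt signalling, went from 363 and 353 to 129 and 126. In each of these genes the treated values were clear of the untreated ones. AXIN2, the scaffold often read as a measure of Wnt activity, had 3442 and 3501 untreated and 3140 and 3647 treated, a log2 fold change of -0.04 ± 0.080. The cyclin gene CCND1 rose by 0.52 on the log2 scale and the BMP and Wnt modulator BAMBI by 0.92. MYC rose by 0.29, but this call was lost without untreated replicate 1 (limma, Benjamini-Hochberg adjusted p = 0.0581) and without treated replicate 2 (0.0784). In the ASCL2 hairpin line the stem cell list had 11 falls, 4 rises and a median of -0.46. The Wnt list had 8 falls, 6 rises and a median of -0.16 there, beside 2804 falls and 3098 rises among all genes tested. The LGR5 response differed from that of the ASCL2 hairpin line, where the log2 fold change was -0.85 (limma test of the difference, Benjamini-Hochberg adjusted p = 0.000477). The same held for AXIN2, at -0.65 in that line (0.00151), and for TCF7, at 0.20 (3.92e-06).

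Genes of cholesterol synthesis rose along most of the pathway. This pathway builds sterols from acetyl-CoA through mevalonate and squalene, and its genes are switched on together by the factor SREBP2 when membrane cholesterol is low. Of 20 tested members 17 rose, 0 fell and 3 did not pass, and the median log2 fold change was 0.59. Of the 17 calls, 12 were kept whichever library was left out. The promoters of 4 of the rising genes are printed to show the proximal sequence of the pathway's genes, from RefSeq (GRCh38.p14), as the 250 bases before the start of the gene on its own strand. Capitals mark the CCAAT box on either strand, that is CCAAT or ATTGG, a short motif bound by the factor NF-Y.
MVD (chr16:88663092-88663341, minus strand): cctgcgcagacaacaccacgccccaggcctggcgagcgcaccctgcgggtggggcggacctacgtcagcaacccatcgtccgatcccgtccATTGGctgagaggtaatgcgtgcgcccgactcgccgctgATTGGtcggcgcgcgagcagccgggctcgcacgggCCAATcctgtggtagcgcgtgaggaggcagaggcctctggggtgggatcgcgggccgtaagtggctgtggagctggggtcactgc
SC5D (chr11:121292521-121292770, plus strand): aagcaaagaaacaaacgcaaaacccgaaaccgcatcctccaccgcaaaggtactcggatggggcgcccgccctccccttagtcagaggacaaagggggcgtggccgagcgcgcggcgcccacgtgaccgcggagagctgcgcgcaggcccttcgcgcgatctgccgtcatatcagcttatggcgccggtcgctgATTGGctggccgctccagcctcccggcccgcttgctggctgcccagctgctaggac
HMGCS1 (chr5:43313413-43313662, minus strand): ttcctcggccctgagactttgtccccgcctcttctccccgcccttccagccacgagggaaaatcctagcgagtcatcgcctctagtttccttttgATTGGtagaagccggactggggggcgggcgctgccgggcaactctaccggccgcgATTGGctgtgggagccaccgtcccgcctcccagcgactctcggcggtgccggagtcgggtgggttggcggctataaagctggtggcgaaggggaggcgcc
FDPS (chr1:155308616-155308865, plus strand): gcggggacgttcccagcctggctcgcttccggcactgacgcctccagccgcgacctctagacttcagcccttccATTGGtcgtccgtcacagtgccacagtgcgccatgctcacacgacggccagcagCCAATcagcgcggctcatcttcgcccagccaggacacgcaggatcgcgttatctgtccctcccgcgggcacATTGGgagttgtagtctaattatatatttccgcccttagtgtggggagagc
A CCAAT or ATTGG was present in this window in 12 of the 15 list members with a promoter in the table, against 33% of all 27305 promoters there. The 12 include MSMO1 and TM7SF2, which did not pass the test. The longer letters TCACCCCA or TGGGGTGA were present in 1 of the 15, MVK, against 1.26% of all promoters. These matches describe the letters and are not shown to be sites that any factor bound in these cells.

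SQLE (ENSG00000104549), squalene epoxidase and a rate-limiting step after squalene, went from 1155 and 1081 to 3371 and 3409. This was the largest response of the pathway at 3.03-fold, with a log2 fold change of 1.60 ± 0.076 (limma, Benjamini-Hochberg adjusted p = 7.69e-09). HMGCS1, which makes HMG-CoA, went from 5350 and 5525 to 9354 and 9884. MVD, which decarboxylates mevalonate diphosphate, went from 1429 and 1393 to 2748 and 2538, and SC5D, a late sterol desaturase, from 770 and 838 to 1476 and 1468. In these 4 genes the treated libraries were all above the untreated ones. The step from farnesyl diphosphate to squalene, FDFT1, showed 10156 and 9852 untreated and 14856 and 14852 treated. IDI1, FDPS, MVK, NSDHL, LSS and ACAT2 rose by between 0.56 and 0.72 on the log2 scale. PMVK, the kinase between MVK and MVD, had 1248 and 1247 untreated and 1268 and 1222 treated, and MSMO1 had 838 and 821 untreated and 633 and 764 treated. The ASCL2 line had 12 rises and 2 falls in this list and a median of 0.43, beside 3098 rises and 2804 falls among all genes tested. MSMO1 was at 1.33 there (limma test of the difference, Benjamini-Hochberg adjusted p = 1.57e-06). FDFT1 was at 0.09 in that line, and its response differed between lines (limma, Benjamini-Hochberg adjusted p = 0.0024).

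Among regulators and uptake genes of the sterol system, 7 of 16 rose and 1 fell, and the median was 0.31. INSIG1, which holds SREBP proteins in the endoplasmic reticulum, went from 2397 and 2548 to 3703 and 4158, a rise of 0.67 on the log2 scale. NPC1, which exports cholesterol from lysosomes, rose by 0.55. SREBF2, the gene of SREBP2, had a log2 fold change of 0.07, and SCAP, the escort of SREBP proteins, one of 0.22, and neither passed. SREBF1, the gene of SREBP1, had 9890 and 9029 untreated and 7524 and 6478 treated. Its fall of 0.44 on the log2 scale passed (limma, Benjamini-Hochberg adjusted p = 0.00347) but not without treated replicate 2 (0.0700). Regulators in the ASCL2 line had 8 rises and 3 falls, with a median of 0.20. The INSIG1 response exceeded that of the ASCL2 line, which was 0.00 (limma test of the difference, Benjamini-Hochberg adjusted p = 0.000845).

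Fatty acid genes split. Among 16 tested members there were 10 rises and 2 falls, and the median was 0.34. The genes that feed acetyl-CoA into the pathway rose: ACLY, ATP citrate lyase, went from 7770 and 7464 to 12270 and 11200, and ACSS2, which activates acetate, from 1136 and 1059 to 2021 and 1922. ME1, a source of NADPH, rose by 0.70 on the log2 scale, the phosphatidate phosphatase LPIN1 by 0.83, the desaturase FADS2 by 0.54 and the elongase ELOVL6 by 0.53. FASN, the fatty acid synthase, went the other way, from 30562 and 28943 to 22503 and 18910. MLXIPL, a glucose-sensing factor that drives lipogenic genes, fell from 891 and 807 to 512 and 449. Both falls kept their call whichever library was left out. In the ASCL2 line 8 members rose and 1 fell, with a median of 0.22, and FASN was at 0.25 (limma test of the difference, Benjamini-Hochberg adjusted p = 0.000446).

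**Figure D2:**
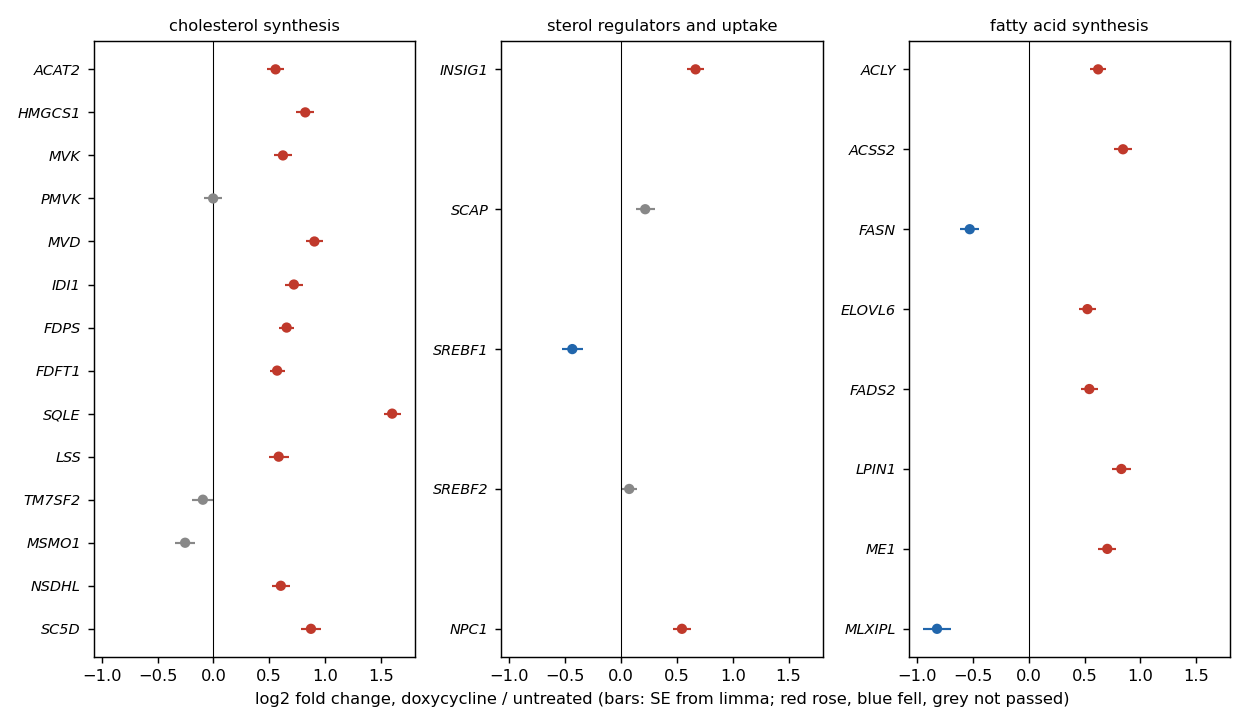
Log2 fold change (horizontal axis) of the members of the cholesterol synthesis, sterol regulator and fatty acid lists that are named in the text, with bars for the standard error from limma. SQLE lies farthest to the right among the synthesis genes at 1.60, and SREBF1, FASN and MLXIPL are the blue points left of 0.

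KRT18 (ENSG00000111057), the type I keratin that pairs with keratin 8 in simple epithelia, lost more scaled reads than any other protein-coding gene that fell. Its value was 38977 and 36188 in untreated and 8197 and 7734 in treated cells, a 4.72-fold fall with a log2 fold change of -2.24 ± 0.092 (limma, Benjamini-Hochberg adjusted p = 6.55e-09). Its partner KRT8 had 67554 and 64546 untreated and 65606 and 63926 treated, a log2 fold change of -0.03 ± 0.088. Per kilobase of transcript, the level of KRT18 went from 18667 and 17331 to 3926 and 3704 while that of KRT8 stayed between 22336 and 23604. Of the other type I keratins of simple epithelia in the list, KRT19 rose by 0.62 on the log2 scale and stood at 8990 and 9305 per kilobase in treated cells. KRT20 rose by 0.60 from a low level, 71 and 89 per kilobase, but not without untreated replicate 1 (limma, Benjamini-Hochberg adjusted p = 0.213) or treated replicate 2 (0.282). KRT18 and KRT8 were therefore near each other per kilobase in untreated cells and several-fold apart in treated cells. Both genes have many processed pseudogenes, whose values may hold reads of the parent gene. Of all 4539 pseudogenes tested 400 or 8.81% were called. Of 45 tested KRT18 pseudogenes 44 fell, with a median of -2.11, and of 44 tested KRT8 pseudogenes limma called 0, with a median of -0.10 and a range from -0.84 to 0.55. In the ASCL2 line KRT18 was at 60191 and 51706 untreated and 52219 and 59706 treated. The difference between lines was -2.24 ± 0.130 on the log2 scale (limma, Benjamini-Hochberg adjusted p = 1.23e-07).

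The 25 protein-coding genes with the largest falls, at a mean value of at least 100, fell between 2.92-fold and 12.3-fold. All 25 kept their direction whichever library was left out. Their choice as called genes without overlap in these same libraries favours this. The steepest was RIPOR3 (ENSG00000042062), from 780 and 792 to 74 and 54. EPN1, an endocytic adaptor, went from 2911 and 2499 to 656 and 545, GRN, the lysosomal growth factor precursor progranulin, from 4313 and 3968 to 1087 and 925, and the ectonucleotidase ENTPD8 from 2593 and 2167 to 569 and 564. In each of them treated cells were far below the lowest untreated value. The Notch ligand DLL4 went from 364 and 362 to 74 and 66, the potassium channel KCNT1 from 1915 and 1740 to 683 and 539, and CD74, the invariant chain of MHC class II, from 619 and 638 to 218 and 211. Cytoskeletal regulators included ARHGDIA, which holds small GTPases in the cytosol, from 14190 and 13287 to 4745 and 4474, and the unconventional myosin MYO1D, from 1035 and 1063 to 334 and 379. MYRIP, a linker between Rab proteins and myosin, fell 3.83-fold.

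Enzymes and secreted proteins with large falls were DHRS2, a short-chain dehydrogenase, from 3106 and 3201 to 972 and 846, PADI3, which converts arginine to citrulline in proteins, 3.67-fold, the matrix proteoglycan BGN 3.0-fold and angiotensinogen, AGT, 3.0-fold. Nuclear proteins among the falls were the kinetochore subunit CENPH, from 264 and 254 to 58 and 76, the general transcription factor subunit GTF2E2, from 711 and 802 to 202 and 274, the stress factor ATF5, from 1423 and 1339 to 496 and 405, and WDR18, 3.04-fold. TULP3, which carries receptors into cilia, fell 3.45-fold, MOB3A, a member of the MOB family of kinase regulators, 3.81-fold and TP53I11 3.03-fold. PNMA6E went from 2933 and 2663 to 462 and 537 but members of its family resemble each other enough to share reads, so its value is uncertain. In scaled reads lost among protein-coding genes, the next after KRT18 was NSMF, from 42574 and 37408 to 21022 and 19201. The cytosolic kinase SYK went from 15170 and 15689 to 6140 and 6022 and the membrane dipeptidase DPEP1 from 27157 and 23787 to 13504 and 12547. MUC6, a gel-forming mucin, fell 1.4-fold from 42594 and 46332. TUBB4B, TUBA1C, RPL3 and RPL13A fell between 1.33-fold and 1.51-fold, and reads of tubulin and ribosomal protein genes can be shared with their copies.

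Of these 25 falls, 12 were also called as falls in the ASCL2 line, 4 were called there in the opposite direction and 9 did not pass there. The difference between lines passed for 22, of which 17 fell further in the WiNTRLINC1 line, beside 16.7% of all genes tested for which it passed. The genes were chosen for large falls in the WiNTRLINC1 line from the same values, which favours a larger fall there, so nothing is read from these counts. DHRS2 was at 4303 and 4796 untreated and 21131 and 22725 treated in the ASCL2 line, so it fell in one line and rose in the other (difference -4.07 ± 0.119, limma, Benjamini-Hochberg adjusted p = 5.13e-11). GRN, at 9716 and 8391 untreated and 8907 and 9341 treated there, differed by -2.06 ± 0.130 (2.38e-07). ARHGDIA had a log2 fold change of 0.26 there, MOB3A 0.28, GTF2E2 0.36, WDR18 0.11, TULP3 -0.10 and MYO1D -0.03. RIPOR3 fell in both, with -2.73 in the ASCL2 line, and its difference did not pass (limma, Benjamini-Hochberg adjusted p = 0.101).

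**Figure D3:**
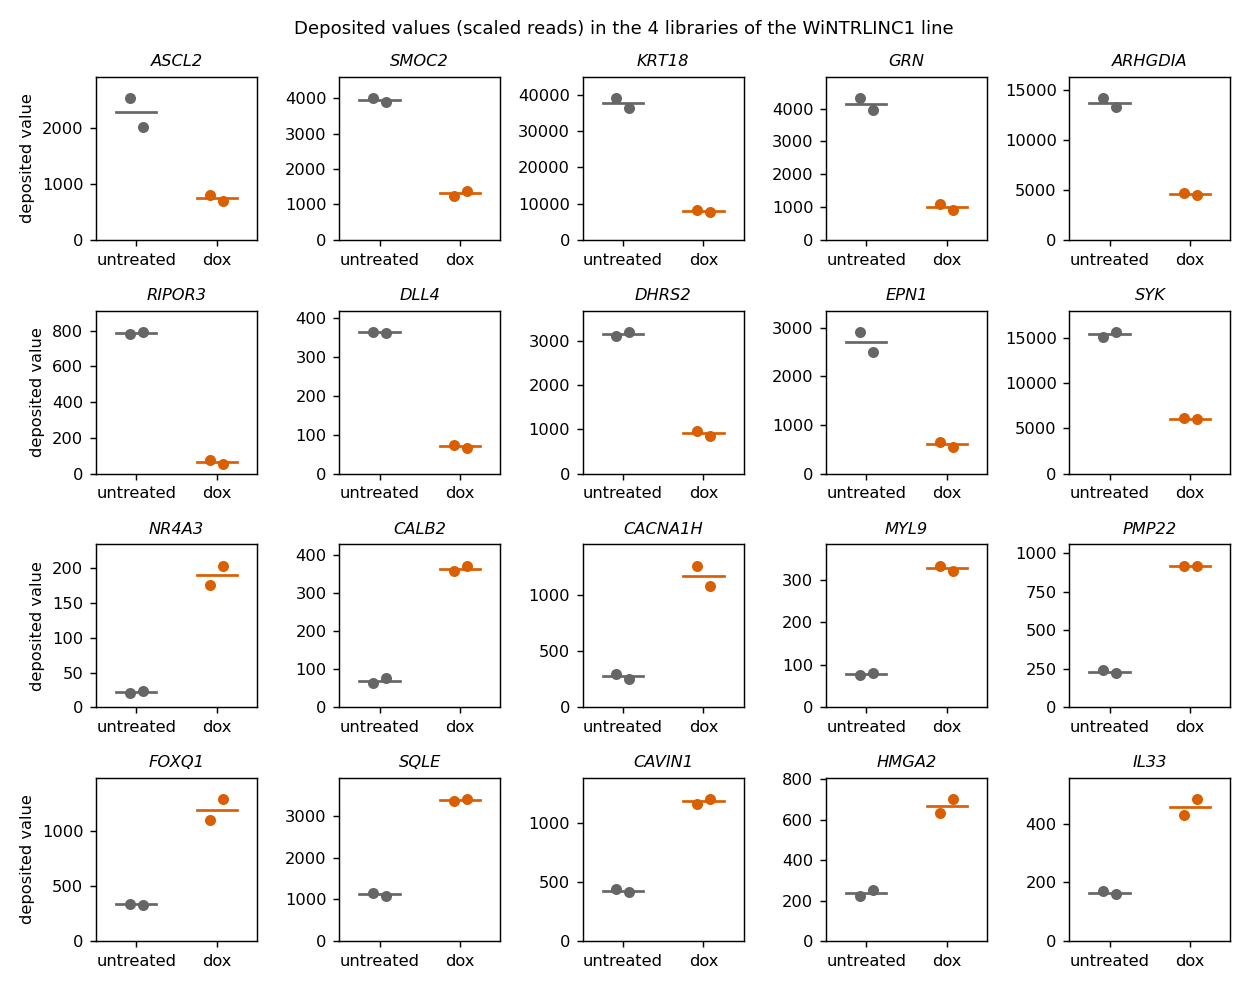
Deposited values (scaled reads, each axis starting at 0) of 20 genes in the 2 untreated (grey) and 2 doxycycline-treated (orange) libraries, with a line at each group's mean. The upper 10 genes fell and the lower 10 rose, and no group of treated values overlaps its untreated group.

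The 25 largest rises lay between 2.76-fold and 8.29-fold. They also kept their direction whichever library was left out, which the same way of choosing favours. NR4A3 (ENSG00000119508), an orphan nuclear receptor of the immediate early kind, went from 21 and 23 to 176 and 204. CALB2, the calcium buffer calretinin, went from 64 and 76 to 358 and 373, and CACNA1H, a T-type calcium channel, from 300 and 254 to 1260 and 1082. In the calcium binding and channel list 10 of 19 rose and 0 fell, the median was 0.33, and 6 of the 10 calls were kept without treated replicate 1. S100A10, the annexin partner, went from 1471 and 1544 to 3532 and 3903, and CALB1, calbindin, from 26 and 33 to 67 and 75. CACNA1H moved the other way in the ASCL2 line, from 2868 and 2657 to 1629 and 1611, and the responses differed by 2.85 ± 0.144 (limma, Benjamini-Hochberg adjusted p = 6.34e-08).

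Several of the 25 encode membrane proteins. PMP22, a tetraspan of myelin and epithelial membranes, went from 239 and 224 to 913 and 918, and its relative EMP1 from 56 and 47 to 188 and 246. In the list of this tetraspan family 5 of 7 rose and 0 fell, of which 3 were kept without untreated replicate 1, untreated replicate 2 or treated replicate 2, and LHFPL2 was the next largest at 1.25 on the log2 scale. The tetraspanin TSPAN4 rose 2.9-fold and CAVIN1, which coats caveolae, 2.76-fold from 441 and 416 to 1168 and 1203. CAVIN1 had a log2 fold change of -0.21 in the ASCL2 line, a difference of 1.68 ± 0.123 (limma, Benjamini-Hochberg adjusted p = 7.74e-07). The endothelial protein C receptor PROCR rose 3.35-fold, the decoy death receptor TNFRSF10D 2.99-fold and the mucin-like PARM1 2.82-fold.

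Among enzymes, AGPAT4, which makes phosphatidic acid, went from 273 and 251 to 1043 and 913, the chondroitin sulfotransferase CHST3 from 220 and 215 to 801 and 705, and the cyclic GMP phosphodiesterase PDE9A from 92 and 99 to 275 and 276. The aldo-keto reductases AKR1B10 and AKR1B15 rose 3.04-fold and 2.96-fold, and are uncertain because these neighbouring genes are close in sequence. Signalling and cytoskeletal genes were ARAP3, a GTPase-activating protein, from 44 and 46 to 194 and 177, the phosphatase UBASH3B, from 196 and 200 to 586 and 699, the myosin light chain MYL9, from 76 and 81 to 334 and 321, and gamma-synuclein, SNCG, from 77 and 49 to 183 and 209. Nuclear factors were FOXQ1, a forkhead factor, from 339 and 326 to 1094 and 1283, and HMGA2, a chromatin protein of embryonic cells, from 223 and 251 to 632 and 701. The secreted proteins were IL33, an alarmin cytokine, from 170 and 160 to 431 and 484, and SPON2, 3.22-fold. By scaled reads gained among called protein-coding genes, the mitochondrial chaperone HSPD1 led, from 35393 and 40092 to 47844 and 48244, but its call was lost without untreated replicate 1 (limma, Benjamini-Hochberg adjusted p = 0.075) and without treated replicate 2 (0.0524). AHNAK went from 19598 and 22832 to 28266 and 29010.

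Of the 25 rises, 15 were called as rises in the ASCL2 line too, 1 was called there as a fall and 9 did not pass there. The difference between lines passed for 23, and 22 of these rose further in the WiNTRLINC1 line, a direction that the choice of genes favours as well. The exception was HMGA2, which rose by 2.48 on the log2 scale in the ASCL2 line against 1.49 here (limma, Benjamini-Hochberg adjusted p = 0.000508). NR4A3 was at 25 and 38 untreated and 30 and 29 treated in the ASCL2 line, a difference of 3.11 ± 0.399 (7.27e-05).

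**Figure D4:**
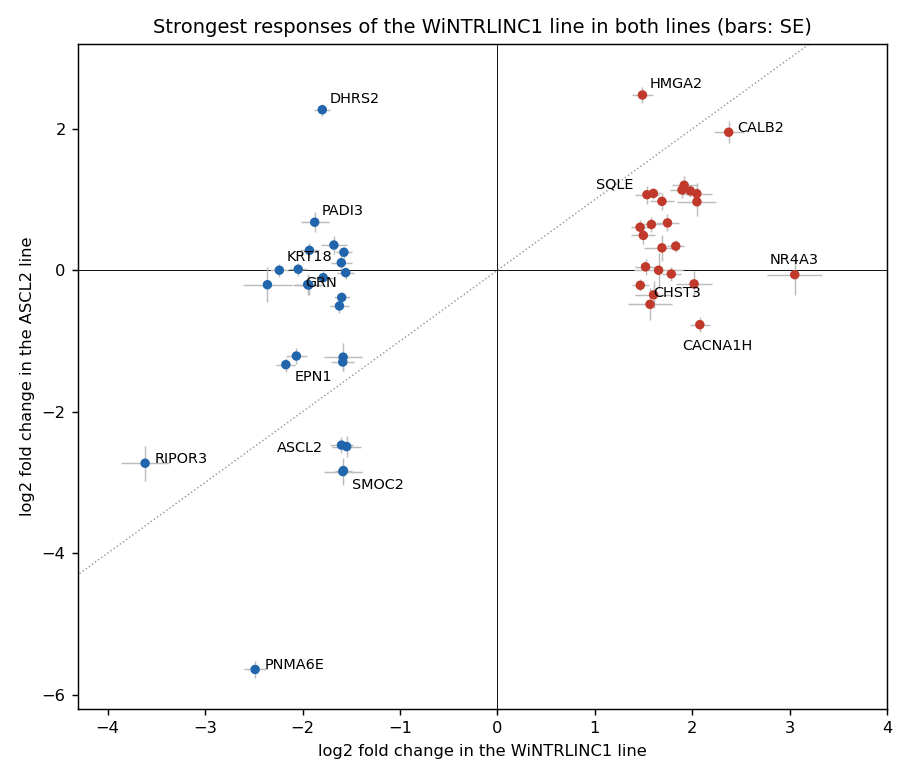
Log2 fold change in the WiNTRLINC1 line (horizontal axis) and the ASCL2 line (vertical axis) of the 25 largest falls (blue) and 25 largest rises (red) of the WiNTRLINC1 line, with bars for the standard error. Points on the dotted diagonal would have equal responses. KRT18 and GRN lie near 0 on the vertical axis, and DHRS2 lies at 2.27 there.

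Goblet cell genes moved in both directions. Of 19 tested members 6 rose and 3 fell, the median was -0.09, and the 6 rises kept their call whichever library was left out. MUC5AC, a gel-forming mucin, went from 4492 and 4546 to 9456 and 8993, the trefoil peptide TFF1 from 973 and 816 to 1831 and 1950, and TFF2 from 2617 and 2227 to 4211 and 4105. MUC2, the main intestinal mucin, went from 14633 and 14085 to 21198 and 18390, and the transcription factor KLF4 from 960 and 892 to 1905 and 1822. In the ASCL2 line these 5 genes had log2 fold changes of -0.25, -0.09, -0.66, -0.22 and 0.26, and each response differed between lines, with the largest adjusted p, 0.000626, for MUC2 (limma, Benjamini-Hochberg). ATOH1, the secretory lineage factor, went from 58 and 74 to 9 and 14. It passed the filter only through its untreated values, so its change is a value and no finding. Its call was lost without the mean-variance trend, without untreated replicate 2 and without treated replicate 1. MUC13, a membrane mucin, fell from 4670 and 4692 to 3400 and 3296 and the sialyltransferase ST6GALNAC1 from 2612 and 2877 to 2079 and 2125, and both kept their call whichever library was left out. TFF3, a marker of goblet cells, had 5166 and 4074 untreated and 5628 and 4659 treated and did not pass.

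Absorptive colonocyte genes had 5 rises and 2 falls among 15 tested, of which 3 rises and 1 fall were kept without untreated replicate 1 and 1 fall without treated replicate 2. The adhesion proteins CEACAM6 and CEACAM5 rose, the former from 1787 and 1839 to 3848 and 4117 and the latter from 1331 and 1314 to 2168 and 2482. PHGR1 fell from 693 and 659 to 357 and 365. In the Notch list 3 of 17 rose and 5 fell, and some of these falls lost their call without treated replicate 1. The 5 falls include ATOH1, which is counted in the goblet list too and whose change is a value and no finding. Besides DLL4 the fringe glycosyltransferase LFNG and the receptor NOTCH1 fell by 0.95 and 0.51 on the log2 scale, while the ligand JAG1 rose from 2428 and 2567 to 4221 and 4414 and the target HES1 from 385 and 403 to 559 and 633. HES1 was at -0.37 in the ASCL2 line (limma test of the difference, Benjamini-Hochberg adjusted p = 0.000152). Of 6 enteroendocrine genes limma called 0, although 3 had an unadjusted p under 0.05, and their log2 fold changes ran from -1.40 to -0.14. Of 5 Paneth cell genes 1 fell, NUPR1, by 0.69. Among 17 intestinal transcription factors 3 rose and 4 fell, with ELF3 at -0.65 and PPARG at 0.39. Most of these falls lost their call without untreated replicate 2 or without treated replicate 1. As shares of those tested, 33.3% of the absorptive genes rose and 13.3% fell. The shares were 17.6% and 29.4% in the Notch list and 17.6% and 23.5% among the transcription factors. Of all protein-coding genes tested 13.7% rose and 13.1% fell, so several of these shares are near that background.

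Genes of the EGF pathway rose without a fall. In the list of EGF ligands and ERK feedback genes 12 of 23 rose and 11 did not pass, with a median of 0.38. The fit without the mean-variance trend gave 7 rises and 0 falls. The feedback inhibitors SPRY2, DUSP6 and SPRED1 went from 1341 and 1234 to 2010 and 2199, from 1533 and 1497 to 2369 and 2301, and from 689 and 786 to 1228 and 1238. The ligand TGFA rose by 0.84 on the log2 scale, betacellulin, BTC, by 0.99 and the receptor EGFR by 0.38. The ligands EREG and AREG did not pass, at 0.25 and 0.43, and neither did the immediate early gene EGR1, at -0.49. This list had 15 rises and 0 falls in the ASCL2 line, with a median of 0.54. EREG and EGR1 were at 2.26 and 2.07 there, and both differed between lines (limma, Benjamini-Hochberg adjusted p = 9.2e-07 and 9.79e-06). Of 10 AP-1 factors 3 rose and 1 fell. The rises were FOSL1 from 340 and 318 to 832 and 854, MAFF by 0.79 and FOSL2 by 0.43. In the fit without the mean-variance trend 3 AP-1 factors rose and 0 fell. Of 12 genes of the MYC and MAX network 3 rose and 2 fell, with MYCN among the rises from 64 and 59 to 171 and 163. Without treated replicate 2, 1 of these 2 falls was kept. Of 15 Eph receptors and ephrins 4 rose and 4 fell. Of the rises 2 were kept without untreated replicate 2 or treated replicate 1, and of the falls 2 without untreated replicate 1 or treated replicate 2. Of 6 E proteins and ID inhibitors, which bind or block factors of the ASCL2 family, 1 fell, ID3, from 6557 and 6320 to 3933 and 3533.

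Mesenchymal and motility genes had 12 rises and 0 falls among 16 tested members, with a median of 0.71. The fit without the mean-variance trend gave 6 rises and 0 falls. FOXQ1 led the list, and other members that rose were the urokinase receptor PLAUR, from 144 and 146 to 290 and 269, and the adhesion molecule ICAM1, from 933 and 945 to 1339 and 1356. PLAUR and ICAM1 are also made by epithelial cells. SPARC, a matrix protein of mesenchyme, rose from 11 and 26 to 51 and 55. ZEB1, a repressor of epithelial genes, went from 13 and 15 to 34 and 37, and its call was lost with any of the 4 libraries left out (limma, Benjamini-Hochberg adjusted p from 0.111 to 0.181). Other defining genes of mesenchyme had lower values: VIM had values of 4, 5, 6 and 1 in the 4 libraries, CDH2 2, 4, 3 and 2 and TWIST1 2, 6, 1 and 6, and these genes did not pass the filter. Of 26 epithelial junction genes 7 fell and 2 rose, and without the mean-variance trend 4 fell and 1 rose. Both proteins of tricellular and tight junctions with a MARVEL domain in the list fell, MARVELD2 from 722 and 702 to 322 and 295 and OCLN from 347 and 327 to 152 and 164. E-cadherin, CDH1, fell by 0.47 on the log2 scale, but not without untreated replicate 1 (limma, Benjamini-Hochberg adjusted p = 0.0557) or treated replicate 2 (0.0505), and 4 of the 7 falls of the list were kept without each of these libraries or without treated replicate 1. CDH17, the liver-intestine cadherin, went from 4588 and 4486 to 7372 and 7735. In the ASCL2 line CDH17 was at -1.03, MARVELD2 at 0.11 and OCLN at 0.21, and all 3 differed between lines, with OCLN at the largest adjusted p of 6.83e-05 (limma, Benjamini-Hochberg).

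Of 21 YAP target genes 10 rose and 1 fell, with a median of 0.41. The fit without the mean-variance trend gave 7 rises and 1 fall. MYOF, which repairs membranes, went from 885 and 926 to 2086 and 2087, the annexins ANXA3 and ANXA1 from 278 and 260 to 656 and 657 and from 431 and 415 to 847 and 862. The ligand TGFB2 went from 16 and 9 to 75 and 61. TGFB2 passed the filter only through its treated values, so its change is a value and no finding. It is counted in the YAP list and in the TGF-beta and BMP list. The 2 genes most often used to read YAP activity, CCN1 and CCN2, did not pass, at 0.07 and -0.36. In the TGF-beta and BMP list 11 of 27 rose and 2 fell, with a median of 0.24, but 6 of the 11 rises were kept without treated replicate 1, 6 without treated replicate 2 and 7 without either untreated library. GDF15, a stress-induced ligand, rose by 0.55 on the log2 scale and BMP7 by 0.37, while BMP4 fell by 0.47. Of 27 actin and SRF target genes 6 rose and 4 fell, and 3 of the rises were kept without untreated replicate 2 or treated replicate 1 and 2 of the falls without treated replicate 2. TPM1, a tropomyosin, went from 3816 and 3919 to 6637 and 6912, whereas CALD1, caldesmon, went from 3188 and 3760 to 1878 and 2015 and VCL, vinculin, fell by 0.43.

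**Figure D5:**
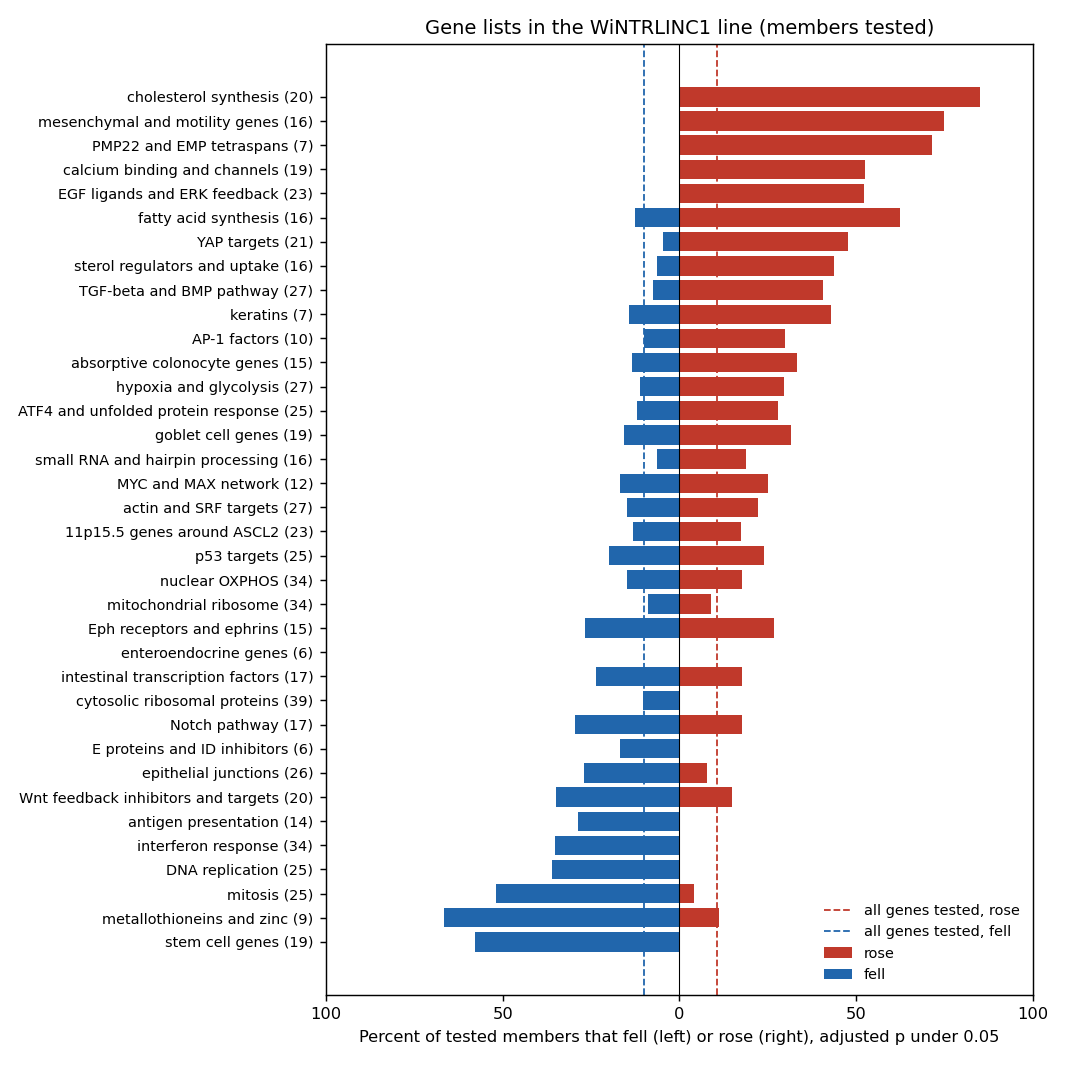
Percent of the tested members of each gene list that rose (red, to the right) or fell (blue, to the left) at an adjusted p under 0.05, with the number tested in brackets. Dashed lines mark all genes tested, 10.6% for rises and 9.94% for falls.

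Cell cycle genes fell by small amounts. In the mitosis list 13 of 25 fell and 1 rose, with a median of -0.26, and in the DNA replication list 9 of 25 fell and 0 rose, with a median of -0.17. FOXM1, a driver of mitotic genes, went from 5143 and 5096 to 3588 and 3576, and the centromere protein CENPF from 4373 and 5348 to 3184 and 3446. E2F1, a driver of S-phase genes, went from 1593 and 1374 to 852 and 776, and the helicase subunits MCM5 and MCM6 fell by 0.52 and 0.41 on the log2 scale. BIRC5, survivin, was the gene that rose, from 2848 and 2798 to 3671 and 4004. The counts depended on single libraries: 6 of the 13 mitosis falls were kept without treated replicate 1, 7 without untreated replicate 2 and 8 without untreated replicate 1, and 4 of the 9 replication falls without treated replicate 1 and 5 without untreated replicate 2. TYMS, thymidylate synthase, and PCNA, the replication clamp, did not pass, at -0.10 and -0.03. Of the mitosis genes 22 fell and 1 rose in the ASCL2 line, with a median of -0.47, and 18 of the replication genes fell and 0 rose, with a median of -0.33. TYMS was at -1.23 there (limma test of the difference, Benjamini-Hochberg adjusted p = 1.48e-05). The p53 targets were mixed, with 6 of 25 that rose and 5 that fell. PMAIP1, a BH3-only death protein, went from 132 and 167 to 311 and 407, the p53 ligase MDM2 from 1755 and 2002 to 1185 and 1306, and CDKN1A, the p21 inhibitor, from 5476 and 4952 to 4890 and 4863 with no call.

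Interferon response genes had 12 falls and 0 rises among 34 tested members, with a median of -0.22. IRF7, the regulator that amplifies the response, went from 930 and 822 to 394 and 338, STAT2, a signal carrier, from 1601 and 1502 to 952 and 1013, IFIT3 from 532 and 518 to 306 and 290, and the RNA sensor RIGI from 452 and 428 to 307 and 318. These 4 falls kept their call whichever library was left out, but without untreated replicate 1 only 4 of the 12 calls were kept, and 7 without treated replicate 2. ISG15 had a log2 fold change of -0.10 and did not pass. Of 14 antigen presentation genes 4 fell and 0 rose. TAPBP, which loads peptides on MHC class I, went from 1099 and 1004 to 536 and 573, and HLA-E fell by 0.58, while HLA-B and HLA-C were at 0.01 and 0.04 with no call. In the ASCL2 line the interferon list had 8 falls and 4 rises, with a median of -0.10. The antigen presentation list had 6 falls and 4 rises there, with a median of 0.03. The difference between lines passed for 8 of the 34 interferon and 7 of the 14 antigen presentation genes. IRF7 and TAPBP, at -0.20 and 0.00 in the ASCL2 line, were among those that differed (limma, Benjamini-Hochberg adjusted p = 0.0002 and 0.000113).

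Metallothioneins, which bind zinc and copper, fell. In the list of metallothionein and zinc genes 6 of 9 tested members fell and 1 rose, with a median of -0.63. The 6 falls were all metallothioneins, and the rise was SLC30A1, which is none. In the ASCL2 line the list had 6 falls and 1 rise too, with a median of -1.09. MT2A went from 1109 and 713 to 325 and 306, MT1X from 259 and 217 to 90 and 95, and MT1E from 3445 and 3514 to 2259 and 2231, all uncertain because the family members are close in sequence. The falls of MT1F, MT1G and MT1H were lost without treated replicate 1 (limma, Benjamini-Hochberg adjusted p = 0.0658, 0.0687 and 0.111), and 4 of the 6 falls of the list were kept without either untreated library on its own, since MT1F and MT1H failed without untreated replicate 1 and MT1G and MT1H without untreated replicate 2. In the list of ATF4 and unfolded protein genes 7 of 25 rose and 3 fell, with 1 fall kept in each of the 4 fits that left out a library. The cystine transporter SLC7A11 went from 1274 and 1389 to 2057 and 2296, and the chaperones HSPA5 and PDIA6 rose by 0.49 and 0.50 on the log2 scale. In the hypoxia and glycolysis list 8 of 27 rose and 3 fell, 1 of the falls being kept without untreated replicate 1, treated replicate 1 or treated replicate 2, with PFKFB4, a glycolytic regulator, from 239 and 263 to 600 and 681 and the carbonic anhydrase CA12 from 3283 and 3264 to 6214 and 6149. PFKFB4 was at -0.35 in the ASCL2 line (limma test of the difference, Benjamini-Hochberg adjusted p = 1.56e-05).

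Genes that process small RNAs and hairpins bear on an assay that works through a hairpin. Of 16 tested members 3 rose and 1 fell, and the median was 0.02. The slicer AGO2 went from 1866 and 1729 to 2961 and 2474, DICER1 from 1639 and 2052 to 2656 and 2820 and TNRC6C from 709 and 742 to 1051 and 974, while TNRC6B, a silencing partner of Argonaute proteins, went from 2763 and 3241 to 1837 and 1732. DROSHA and XPO5 were at 0.03 and 0.02 with no call. These 4 calls were kept whichever library was left out. Of 39 cytosolic ribosomal proteins 4 fell and 0 rose, of 34 mitochondrial ribosomal proteins 3 fell and 3 rose, and of 34 nuclear OXPHOS genes 6 rose and 5 fell. As shares of those tested, the ribosomal falls were 10.3% and the mitochondrial ribosomal calls 8.82% in each direction. The OXPHOS calls were 17.6% for rises and 14.7% for falls. Of all genes tested 10.6% rose and 9.94% fell, and of the protein-coding genes 13.7% rose and 13.1% fell. In the fit without the mean-variance trend 0 mitochondrial ribosomal proteins rose and 2 fell. Of the mitochondrial ribosomal rises 1 was kept without treated replicate 1. Of the OXPHOS calls 1 rise was kept without treated replicate 2 and 0 falls without treated replicate 1. MRPS27 stood apart from its list, from 3645 and 3873 to 1950 and 1968, and was at 0.40 in the ASCL2 line (limma test of the difference, Benjamini-Hochberg adjusted p = 8.33e-07). Among the genes of chromosome 11 around ASCL2, 3 of 23 fell, ASCL2 included, and 4 rose, of which 1 rise was kept without untreated replicate 2 and 2 without either treated library. The imprinted RNA H19, with 245004 and 197159 untreated and 161966 and 150265 treated, fell by 0.49 on the log2 scale, a call lost without untreated replicate 1 (limma, Benjamini-Hochberg adjusted p = 0.089) and without treated replicate 2 (0.0743), and also under quantile normalization (0.364).

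Among 1852 long non-coding RNAs tested 157 or 8.48% were called, of which 105 fell, 5.67% of those tested, and 52 rose, 2.81%. Among 13162 protein-coding genes 26.7% were called, 13.1% as falls and 13.7% as rises. KDM7A-DT went from 691 and 604 to 208 and 212, LINC02600 from 153 and 206 to 50 and 79 and SNHG26 from 241 and 283 to 131 and 144. LINC01978 rose from 290 and 248 to 509 and 531 and CYTOR from 49 and 57 to 124 and 137, and CYTOR shares sequence with MIR4435-2HG, which went from 269 and 263 to 511 and 506. Values of antisense RNAs are uncertain, because whether the counting used strand is not stated, and none is described among these. As examples of genes with high values and no difference, COPA, a coat protein of Golgi vesicles, had 5576 and 5713 untreated and 5646 and 5641 treated, and PGPEP1 had 2420 and 2527 untreated and 2496 and 2450 treated. COPA had a 95% interval of the log2 fold change from -0.15 to 0.15.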

How the data were processed

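RNA of 8 LS174T libraries was sequenced on Ion Proton chips, per the labels, and 4 of them, 2 per group, enter the comparison. The deposited values are whole-number scores, per the labels and the values themselves: read counts per gene that the authors scaled per library and rounded. The submitters' processing notes name cutadapt, TopHat2 2.0.9, Cufflinks and DESeq, while the sources used here name neither a counting program nor whether it used strand. Because scaled values are no raw counts, no count model was used. Scaling factors of 0.798 to 1.141, estimated from the steps in the values, put the depth between 19.3 M and 28.0 M reads per library.

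A gene was kept if 2 or more of the 4 libraries had a value of 10 or more, which left 20225 of 57736. Symbols matched 51959 of the listed genes, and the others held 1.18% of the summed values. Values were transformed as log2(value + 1) and fitted with limma 3.58.1 in R 4.3.3, with a mean-variance trend and with all 8 libraries in 4 groups, so that the spread was estimated over both lines. The contrasts were treated minus untreated in the WiNTRLINC1 line, and that difference minus the one in the ASCL2 line. P-values were adjusted by Benjamini-Hochberg over all 20225 genes and called under 0.05. The fit was tested on simulated data. Some genes that enter the counts are not reported here by name.

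The genes and gene lists were chosen with earlier results of these data known. Named genes were ASCL2, the 25 largest fold changes per direction among called protein-coding genes with a mean of at least 100 and no overlap of groups, the 10 largest differences in value per direction, the 6 largest long non-coding RNAs per direction, list members, the 10 largest differences between lines per direction, pseudogenes of these genes as groups, and up to 6 genes of mean at least 2000 with the smallest fold change. Replicate numbers are shared between groups. Their deviations correlated at 0.313 in this line and -0.145 in the ASCL2 line over 13184 genes, and with 2 pairs per line the numbers were not taken to pair the samples. Alternatives were the pseudocount, the filter, the trend, the normalization, a robust fit, the line fitted alone, the replicate block and leaving out each library.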

Additional observations from a re-analysis of the deposited data

Results flagged for a closer look

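The response of the WiNTRLINC1 line differed from that of the ASCL2 line for the 22 genes below in limma's interaction test with Benjamini-Hochberg adjustment. Apart from ASCL2 and KRT18 they were chosen for a large difference between the lines, so nothing is read from their passing. They are not all the genes that differed. The test passed for 16.7% of all genes tested and for other named genes, among them GRN. Values of the 22 follow as the response of the first line minus that of the second on the log2 scale. DHRS2 differed by -4.07 and TEX19 by -4.46. TEX19 had 42 and 41 untreated and 24 and 22 treated in the WiNTRLINC1 line and 114 and 116 untreated and 1448 and 1428 treated in the ASCL2 line. ASB4 differed by -2.69, with 60 and 66 untreated and 22 and 17 treated here and 1341 and 1414 untreated and 2766 and 2913 treated there. PADI3 differed by -2.56, with 369 and 415 untreated and 592 and 665 treated in the ASCL2 line. These 4 genes fell in one line and were higher in treated cells of the other.

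KRT18 differed by -2.24. Its pseudogenes KRT18P25, KRT18P13, KRT18P34, KRT18P1, KRT18P16 and KRT18P23 differed by -2.67, -2.98, -2.62, -2.53, -2.71 and -2.60, and they may hold reads of KRT18.

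ASCL2 differed by 0.87 and PNMA6E by 3.16, since both fell further in the ASCL2 line, where PNMA6E went from 1749 and 1942 to 39 and 33. CACNA1H differed by 2.85. AKR1B1 differed by 2.37, with 2304 and 2069 untreated and 2918 and 2941 treated here and 12956 and 10747 untreated and 3135 and 2978 treated there. Its pseudogenes AKR1B1P2, AKR1B1P3 and AKR1B1P7 differed by 2.40, 2.33 and 2.77. NBDY differed by 2.80, KCNK5 by 2.65 and WDR54 by 3.24. NBDY had 243 and 272 untreated and 359 and 332 treated here, and 903 and 727 untreated and 146 and 166 treated there. The rises of NBDY and AKR1B1P2 in the WiNTRLINC1 line were lost with each library left out in turn. The rises of AKR1B1P3 were lost likewise, those of AKR1B1P7 without either replicate 2, that of KCNK5 without untreated replicate 2 or treated replicate 1, and that of WDR54 without untreated replicate 1 or treated replicate 2. KIF25-AS1 differed by 3.38, with 0 and 1 untreated and 18 and 16 treated here, against 363 and 275 untreated and 382 and 387 treated there. It was tested in this line only because its treated values passed the filter, so its change and difference are values and no finding, and whether the counting of this antisense RNA used strand is not stated.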

How the results depend on the processing

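With 2 libraries per group, single libraries limited the number of calls: leaving out each in turn gave between 2479 and 2976 called genes, between 1120 and 1548 that rose and between 1343 and 1428 that fell. The share of calls that rose was 45.2% without treated replicate 2 and between 46.9% and 53.1% in all other settings. Without a filter beyond a value above 0 there were 2669 calls, with 1332 rises, 1337 falls and 2069 differences between lines, and more genes were then tested. Without the mean-variance trend there were 2236 calls, with 1048 rises, 1188 falls and 1598 differences, and the cause was not tested. The line fitted alone gave 3483 calls. Other pseudocounts, a stricter filter, a robust fit and other normalizations gave between 4132 and 4300.

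The fit with the replicate block gave 4358 calls, 2273 rises and 2085 falls, and 3588 differences between lines. The check of the pairing gave correlations of 0.313 and -0.145, and with the numbers crossed in the ASCL2 line, a pairing chosen after seeing the data, there were 5430 calls and 4737 differences. Of 371 named and list genes called, 0 changed sign in any setting. Of these, 226 kept their call without the trend, 275 without the filter, 364 with the replicate block and between 272 and 292 with 1 library left out.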

Other observations

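Further gene families were chosen after their values were seen. Of 26 host genes of small nucleolar RNAs 12 fell and 0 rose, with a median log2 fold change of -0.25 beside 0.01 for all genes tested, and in the ASCL2 line 7 rose and 3 fell. GAS5, a growth arrest transcript, went from 2935 and 3188 to 2132 and 1910, SNHG5 from 1094 and 1248 to 719 and 728, SNHG8 from 520 and 515 to 307 and 342 and SNHG12 from 1555 and 1545 to 923 and 1058. SNHG12 is annotated as antisense, and its value is uncertain because whether the counting used strand is not stated. In all 4 the treated values lay below the untreated ones.

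Of 20 HOX genes, which set position along the body axis, 5 rose and 0 fell, and all 5 belong to the HOXA cluster on chromosome 7. HOXA9 went from 448 and 470 to 775 and 785, HOXA10 from 293 and 314 to 476 and 571, HOXA11 from 398 and 436 to 727 and 732, and HOXA13 from 327 and 351 to 520 and 489, and HOXA7 rose by 0.66 on the log2 scale. In the ASCL2 line 1 HOX gene rose, HOXB8, and 5 fell, HOXA3, HOXB3, HOXB4, HOXB5 and HOXB6. The 5 HOXA genes that rose in the WiNTRLINC1 line did not pass there, with log2 fold changes between -0.165 and 0.227. Of all genes tested 3098 rose and 2804 fell in the ASCL2 line. Of 12 aldo-keto reductases, enzymes that reduce aldehydes and ketones, 6 rose and 1 fell, while 0 rose and 4 fell in the ASCL2 line. AKR1C1 went from 5251 and 4992 to 6897 and 7015, and close copies in this family can share reads. Of 14 genes with a numbered tubulin symbol 5 fell and 1 rose, with a median of -0.27. The 14 include the antisense RNA TUBA1B-AS1, which did not pass. Of 185 zinc finger genes of chromosome 19, 13 fell and 3 rose. Among all 20225 genes tested 2010 or 9.94% fell and 2136 or 10.6% rose. Of the 966 protein-coding genes tested on chromosome 19, 15% fell and 8.18% rose. The shares of falls and of rises in the zinc finger family were both below these.

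Median replicate differences ran with GC content in both groups, from 0.11 to -0.11 on the log2 scale from the lowest to the highest of 5 GC classes in untreated and from 0.09 to -0.08 in treated libraries. From the lowest to the highest GC class, 8.66%, 9.99%, 13.5%, 16% and 17.2% of protein-coding genes fell. The share that rose lay between 12.2% and 14.9%. The median log2 fold change was 0.02 in the lowest class and -0.03 in the highest. The part of GC content in the calls was not tested.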
